A study of Saccharomyces cerevisiae with 12 samples.

Results

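The Msn2-Msn4 general stress marker genes of the budding yeast Saccharomyces cerevisiae were followed across 6 groups of arrays. The genes were the transcription factors MSN2 and MSN4 and 8 genes used as markers of their activity, HSP12, DDR2, CTT1, TMA10, SPI1, TFS1, RTN2 and DDR48. A gene was taken where a probe set of the array carried its symbol and no other gene's in the platform annotation. All 10 genes were found this way, on 11 probe sets of 6504 with 1 symbol, which together stood for 5656 genes. All 10 passed the filter on low values and were among the 5368 genes tested, and all lay above the floor described with the processing on all 12 arrays. The rule uses no measured value, but the genes it names were chosen with earlier results of these data known.

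The 6 groups, of 2 one-colour Affymetrix arrays each, were C403A treated with methyl methanesulfonate (MMS), C403A untreated, C406A treated with MMS, C406A untreated, wild type treated with MMS and wild type untreated. MMS, an agent that methylates DNA bases, had been given at 0.03% for 30 minutes. C403A and C406A are mutants of TFIIH, the general transcription factor that opens promoters and also acts in nucleotide excision repair. The labels give no strain background and no account of how the mutant alleles are carried. From knowledge of the study, the mutated subunit is Ssl1. The SSL1 probe set averaged 5028 in MMS-treated and 4931 in untreated C403A, 3713 in MMS-treated and 3588 in untreated C406A, and 1682 in MMS-treated and 1716 in untreated wild type, so both mutants lay above wild type under either treatment. The probe set cannot tell a substituted transcript from a normal one.

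Msn2 and Msn4 are related zinc-finger activators that bind the stress response element, a short sequence in the promoters of many stress genes. In growing cells protein kinase A and TOR signalling hold them in the cytoplasm, and under stress they enter the nucleus, so their activity is set largely by location and not by transcript level. The genes they activate encode chaperones, antioxidant enzymes, cell wall proteins and enzymes of carbohydrate storage, and are together called the general or environmental stress response. Values below are normalized intensities, which compare arrays for one gene and not genes with each other, and differences are on the log2 scale, ± their limma standard error. Genes were called at a p under 0.05 after Benjamini-Hochberg adjustment over all genes tested. The labels do not state whether the 2 arrays of a group were grown as separate cultures. The p-values therefore cover only how far these arrays differ, which may be technical.

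The 2 arrays of a group had correlations of 0.985 to 0.993 across genes. Signal of 10 ribosomal RNA probe sets over the array median was highest on untreated C403A array 2 (6.98) and untreated wild-type array 2 (2.58), and lay between 0.215 and 1.25 on the other 10 arrays. Those 2 arrays also had the higher value of their group for DDR2, CTT1, TMA10, SPI1 and DDR48. The part of this signal in the results was not tested beyond leaving both arrays out. The arrays had been scanned on 1 day, strain by strain and untreated before treated, so scan order and group cannot be told apart.

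**Figure D1:**
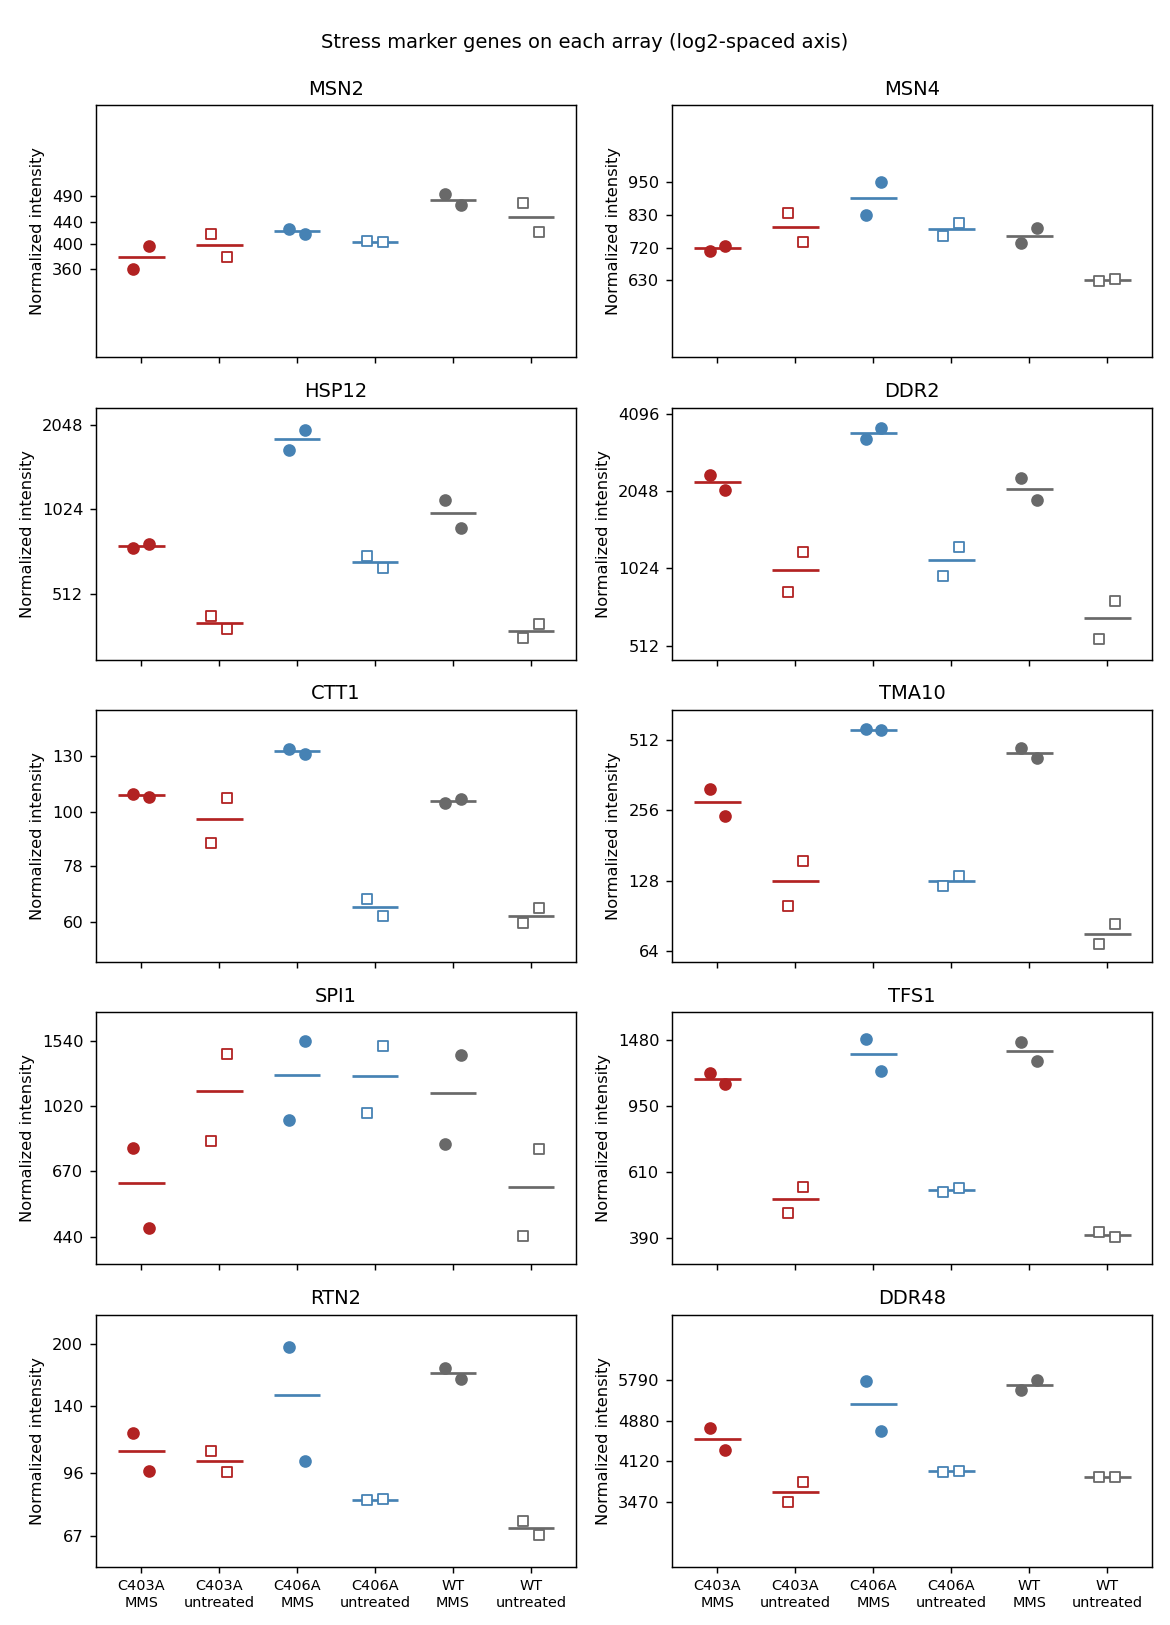
Normalized intensity of the 10 genes (log2-spaced axis) on each of the 12 arrays, in the 6 groups. Points are arrays, filled circles MMS-treated and open squares untreated, and bars are the means of 2 arrays. The treated arrays of HSP12, DDR2, TMA10 and TFS1 lie above the untreated ones in every strain, while the 2 arrays of each SPI1 group stand far apart.

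The MMS responses of the factor transcripts lay between -0.13 and 0.27 on the log2 scale, and 1 of the 6 passed, that of MSN4 in wild type. Among all genes tested, 8.42% rose in C403A, 12.7% in C406A and 19.1% in wild type, and 7.13%, 11.2% and 13.8% fell. MSN2 had 361 and 398 in MMS-treated C403A, against 417 and 379.6 in untreated C403A. It had 427 and 417 in MMS-treated C406A, against 405 and 404 in untreated C406A, and 494 and 471 in MMS-treated wild type, against 475 and 421 in untreated wild type. Treated and untreated arrays overlapped in C403A and in wild type. The MMS response of MSN2 was -0.07 ± 0.09 in C403A (adjusted p = 0.679), 0.06 ± 0.09 in C406A (adjusted p = 0.671) and 0.11 ± 0.09 in wild type (adjusted p = 0.399), none past the threshold. On the values as deposited, without normalization between arrays, the C403A estimate had the other sign (0.24, adjusted p = 0.549). From the highest mean to the lowest the MSN2 groups ran treated and untreated wild type, treated and untreated C406A, untreated and treated C403A. Only treated and untreated C406A, among neighbours in that order, had arrays that did not overlap.

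MSN4, the paralogue of MSN2, had 713 and 726 in MMS-treated C403A, against 834 and 739 in untreated C403A. It had 828 and 950.2 in MMS-treated C406A, against 759 and 800.0 in untreated C406A. In MMS-treated wild type it had 736 and 783, against 629 and 634 in untreated wild type. The means ran in the order treated C406A, untreated C403A, untreated C406A, treated wild type, treated C403A and untreated wild type, and the first 4 overlapped from neighbour to neighbour while the last 2 stood apart. The MMS response was -0.13 ± 0.09 in C403A (adjusted p = 0.382), 0.19 ± 0.09 in C406A (adjusted p = 0.150) and 0.27 ± 0.09 in wild type (adjusted p = 0.0408). The wild-type rise did not pass on leaving out any 1 of the 4 arrays (adjusted p between 0.0771 and 0.172), nor on the values as deposited (adjusted p = 0.0930) or with scaling to hybridization controls (adjusted p = 0.461). The C403A estimate turned to 0.20 on the values as deposited (adjusted p = 0.589).

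Most marker genes rose with MMS, with the lowest estimates in C403A. Of all 10 genes, 5 rose in C403A, 7 in C406A and 8 in wild type, and none fell. Among all genes tested, 8.42% rose in C403A, 12.7% in C406A and 19.1% in wild type, and 7.13%, 11.2% and 13.8% fell. Of the genes that passed, those that rose made up 54.1%, 53.1% and 58% in these strains, and 97.8%, 98.6% and 91.9% on the values as deposited, where the median of all genes was itself above 0. The median response of the 8 markers was 0.62 in C403A, 1.18 in C406A and 1.33 in wild type, beside a median of all genes of at most 0.02 in each strain. The treated arrays lay wholly above the untreated for 6 genes in C403A, 9 in C406A and 9 in wild type, where 28.0%, 34.4% and 35.8% of all genes did so. They lay wholly below for 2 genes in C403A, MSN4 and SPI1, and for 0 in C406A and wild type. The share of all genes wholly below is not given here. In bulk RNA, a change in the level per cell and a change in the share of cells that express a gene cannot be told apart.

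TMA10, which encodes a ribosome-associated protein, had the largest MMS response of the 10 genes in wild type and in C406A. It had 316 and 241 in MMS-treated C403A, against 99.3 and 155 in untreated C403A. It had 571 and 561 in MMS-treated C406A, against 122 and 134 in untreated C406A, and 472 and 428 in MMS-treated wild type, against 68.9 and 83.1 in untreated wild type. In each strain the treated arrays were all higher. The response was 1.15 ± 0.21 in C403A (adjusted p = 0.00654), 2.15 ± 0.21 in C406A (adjusted p = 0.000191) and 2.57 ± 0.21 in wild type (adjusted p = 3.71e-05). By size TMA10 ranked 35 from the top of 5368 genes in C403A, 5 in C406A and 5 in wild type. The mean levels ran in the order treated C406A, treated wild type, treated C403A, untreated C406A, untreated C403A and untreated wild type, and only the untreated mutants overlapped. The C403A call was lost without MMS-treated C403A array 1 (0.95, adjusted p = 0.0566) and with the compared groups fitted alone (adjusted p = 0.113).

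TFS1, an inhibitor of the vacuolar protease carboxypeptidase Y, had 1181 and 1099 in MMS-treated C403A, against 461 and 551 in untreated C403A. It had 1485 and 1203 in MMS-treated C406A, against 532 and 546 in untreated C406A. It had 1464 and 1282 in MMS-treated wild type, against 405 and 392 in untreated wild type. The treated groups stood clear of the untreated ones, and the response was 1.18 ± 0.12 in C403A (adjusted p = 0.000322), 1.31 ± 0.12 in C406A (adjusted p = 0.000140) and 1.78 ± 0.12 in wild type (adjusted p = 1.47e-05). TFS1 passed in all 3 strains on leaving out any array of the groups compared. Treated wild type and C406A, the highest groups, overlapped each other, as did the untreated mutants.

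DDR2, a small multistress protein first found as DNA damage-responsive, had 2353 and 2074 in MMS-treated C403A, against 829 and 1182 in untreated C403A. It had 3259 and 3596 in MMS-treated C406A, against 959 and 1244 in untreated C406A, and 2296 and 1886 in MMS-treated wild type, against 542 and 767 in untreated wild type. Treated C406A was the highest group and overlapped no other, while treated C403A and treated wild type overlapped, as did the untreated mutants, and untreated wild type was the lowest. The response was 1.16 ± 0.21 in C403A (adjusted p = 0.00654), 1.65 ± 0.21 in C406A (adjusted p = 0.000659) and 1.69 ± 0.21 in wild type (adjusted p = 0.000326). The C403A call did not hold without MMS-treated C403A array 1 (1.07, adjusted p = 0.0526) or with the compared groups fitted alone (adjusted p = 0.0729).

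HSP12, a small heat shock protein that associates with membranes, had 746 and 771 in MMS-treated C403A, against 426 and 382 in untreated C403A. It had 1670.0 and 1961 in MMS-treated C406A, against 695 and 634 in untreated C406A, and 1108 and 879.8 in MMS-treated wild type, against 357 and 398 in untreated wild type. C406A had the highest HSP12 level both with and without MMS. The response was 0.91 ± 0.12 in C403A (adjusted p = 0.00158), 1.45 ± 0.12 in C406A (adjusted p = 0.000110) and 1.39 ± 0.12 in wild type (adjusted p = 6.11e-05). From the highest mean the order was treated C406A, treated wild type, treated C403A, untreated C406A, untreated C403A and untreated wild type, of which only the last pair overlapped.

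CTT1 and RTN2 passed in C406A and wild type and not in C403A, although the test of the difference between strains, given below with the others, was passed by neither. CTT1, the cytosolic catalase T that breaks down hydrogen peroxide, had 109 and 108 in MMS-treated C403A, against 86.9 and 107 in untreated C403A. It had 135 and 132 in MMS-treated C406A, against 66.6 and 61.7 in untreated C406A, and 104 and 107 in MMS-treated wild type, against 59.6 and 63.9 in untreated wild type. Untreated C403A thus lay above the other untreated groups, which overlapped each other. Its array 2, that of the highest ribosomal RNA signal, was level with treated wild type. Treated C406A was the highest group, followed by treated C403A. The response was 0.17 ± 0.13 in C403A (adjusted p = 0.437), 1.05 ± 0.13 in C406A (adjusted p = 0.000556) and 0.77 ± 0.13 in wild type (adjusted p = 0.00167). On leaving out 1 array in turn, the C403A estimate ran from 0.02 to 0.32. With scaling to hybridization controls the wild-type call was lost (adjusted p = 0.114). CTT1 was dim, at most 135 on any array, and lay under the 40th percentile floor on every array. Its calls were therefore not tested with that floor.

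RTN2, a reticulon-family protein of the endoplasmic reticulum, had 120.3 and 97.0 in MMS-treated C403A, against 108 and 96.5 in untreated C403A. It had 197 and 102 in MMS-treated C406A, against 82.0 and 82.6 in untreated C406A, and 175 and 164 in MMS-treated wild type, against 72.9 and 67.4 in untreated wild type. The treated C406A arrays were far apart, and from treated wild type, the highest group, through treated C406A and treated C403A to untreated C403A neighbours overlapped. Untreated C406A and untreated wild type lay below them and apart. The response was 0.08 ± 0.25 in C403A (adjusted p = 0.886), 0.79 ± 0.25 in C406A (adjusted p = 0.0493) and 1.27 ± 0.25 in wild type (adjusted p = 0.00421). Without MMS-treated C406A array 1 the C406A response was 0.32 (adjusted p = 0.240), and it also missed the threshold without either untreated C406A array (adjusted p = 0.153 and 0.156). With the floor at the 40th percentile the calls in C406A (0.20, adjusted p = 0.196) and wild type (0.19, adjusted p = 0.204) were lost, and the C403A estimate was 0.00.

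DDR48, a stress protein named for its induction by DNA damage, was measured by 2 probe sets, of which the brighter was used. It had 4735 and 4305 in MMS-treated C403A, against 3473 and 3766 in untreated C403A. It had 5773 and 4676 in MMS-treated C406A, against 3938 and 3949.6 in untreated C406A, and 5546 and 5789.5 in MMS-treated wild type, against 3851 and 3857 in untreated wild type. The treated arrays were higher in every strain, and the treated groups overlapped between wild type and C406A and between C406A and C403A. The untreated groups, in the order C406A, wild type and C403A, did not overlap on this probe set. The response was 0.32 ± 0.09 in C403A (adjusted p = 0.0409), 0.40 ± 0.09 in C406A (adjusted p = 0.0120) and 0.56 ± 0.09 in wild type (adjusted p = 0.00143). Its second probe set gave 0.42, 0.58 and 0.78 for C403A, C406A and wild type when all probe sets were tested (adjusted p = 0.00653, 0.000808 and 0.000105). There the untreated C403A mean (1963) lay above that of untreated wild type (1953), and their arrays overlapped. The losses that follow are those of the brighter probe set. The C403A call was lost on leaving out any 1 of its 4 arrays (adjusted p between 0.0552 and 0.222), and the C406A call on leaving out MMS-treated array 1 or either untreated array. Median scaling ended both calls (C403A 0.20, adjusted p = 0.257, and C406A 0.24, adjusted p = 0.137), a term for scan position ended that of C403A (adjusted p = 0.0524), and hybridization controls ended that of C403A and that of wild type (0.48, adjusted p = 0.195).

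**Figure D2:**
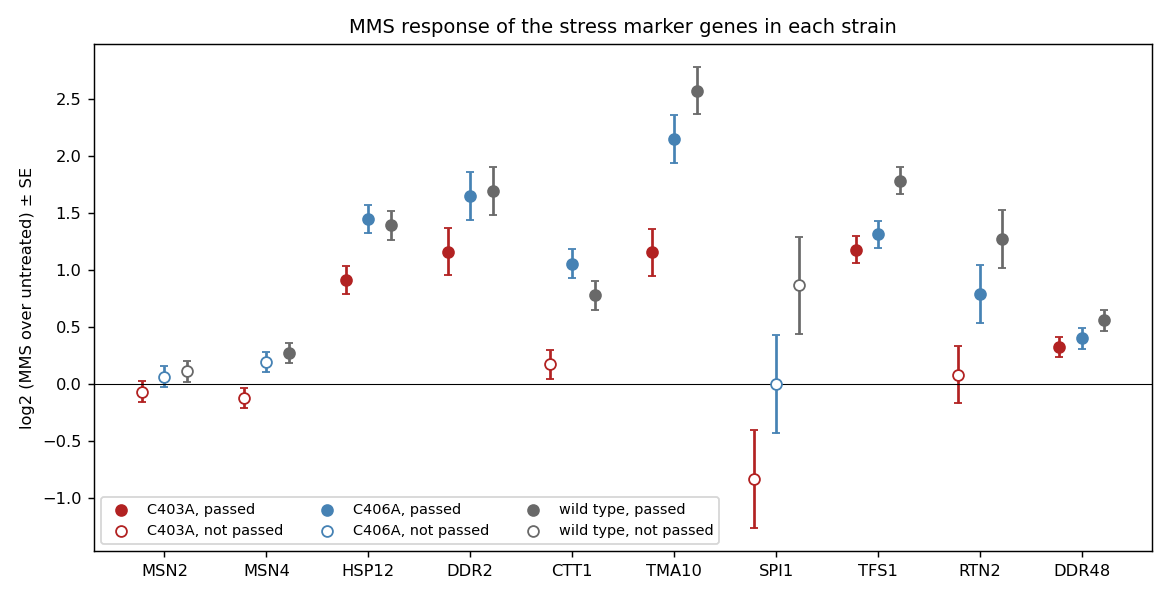
The MMS response of each gene in C403A, C406A and wild type (log2 MMS over untreated, bars are limma standard errors, 2 arrays a group). Filled points passed at adjusted p under 0.05; TMA10 shows the widest separation among the genes that passed in every strain, at 1.15 in C403A, 2.15 in C406A and 2.57 in wild type.

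SPI1, a cell wall protein anchored by a lipid, passed in no strain. It had 778 and 465 in MMS-treated C403A, against 811 and 1423 in untreated C403A. It had 933 and 1544 in MMS-treated C406A, against 970.4 and 1496 in untreated C406A, and 797 and 1415 in MMS-treated wild type, against 443 and 771 in untreated wild type. Within every group 1 array was well above the other, and treated and untreated arrays overlapped in C406A only. By mean log2 level, untreated C406A, treated C406A, untreated C403A and treated wild type formed an overlapping upper set, and treated C403A and untreated wild type an overlapping lower pair. The response was -0.84 ± 0.43 in C403A (adjusted p = 0.231), -0.01 ± 0.43 in C406A (adjusted p = 1) and 0.86 ± 0.43 in wild type (adjusted p = 0.155), and the C406A estimate was 0.45 on the values as deposited.

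The spread of SPI1 followed the order of scanning. In each strain the untreated array scanned first and the MMS array scanned last had the higher SPI1 value, by 0.62 to 0.83 on the log2 scale in the 6 groups. Among the 5368 genes, 320 (5.96%) differed the same way between these array positions in all 6 groups, and HSP30 alone did so by at least as much as SPI1. With a term for this position in the fit, the SPI1 response was -0.84 in C403A (adjusted p = 0.000261), -0.01 in C406A and 0.86 in wild type (adjusted p = 6.57e-05). That term was chosen after seeing the SPI1 values, so these p-values are not independent evidence. What the position stands for was not tested.

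**Figure D3:**
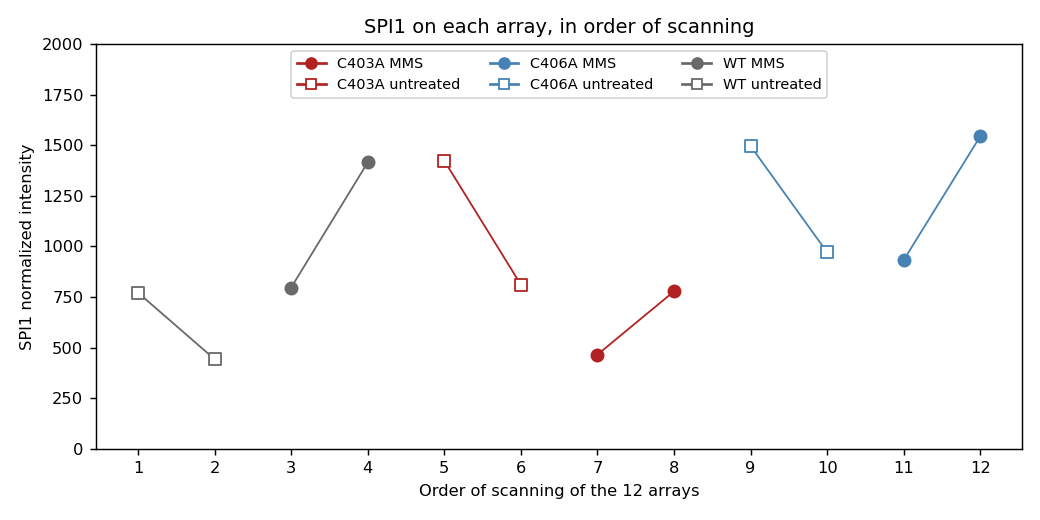
SPI1 normalized intensity (linear axis) on the 12 arrays in order of scanning, with lines joining the 2 arrays of a group. In each strain the untreated pair descends and the MMS pair ascends, so the outer arrays of the strain are the higher ones, by 0.62 to 0.83 on the log2 scale.

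The C403A response was the smallest of the 3 strains for all 10 genes in the estimates, but no difference from wild type passed in the fit used for the values above. The difference between the C403A and wild-type responses was negative for all 10 genes, from -0.18 for MSN2 to -1.70 for SPI1, with a median of -0.57 beside -0.03 over all genes. In limma's test 0 of 10 passed, where 0.987% of all genes did. TMA10 came nearest, at -1.42 ± 0.29 (adjusted p = 0.0597). Its estimate ran from -1.74 to -1.09 on leaving out each of the 8 arrays in turn. Its untreated C403A value was higher on array 2, that of the highest ribosomal RNA signal. With the term for scan position, chosen after seeing SPI1, SPI1 (-1.70, adjusted p = 0.000248) and TMA10 (-1.42, adjusted p = 0.0332) passed, and SPI1 also passed with hybridization controls (-1.81, adjusted p = 0.000225). RTN2 followed with -1.19 ± 0.36 (adjusted p = 0.151), TFS1 with -0.60 ± 0.17 (adjusted p = 0.118) and CTT1 with -0.60 ± 0.18 (adjusted p = 0.154).

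The difference of the C406A response from that of wild type ran from -0.87 for SPI1 to 0.28 for CTT1. Its median was -0.12, beside -0.02 over all genes. Again 0 of 10 passed in limma's test, where 0.00% of all genes did. TFS1 had the smallest adjusted p there (-0.47 ± 0.17, adjusted p = 0.510). Between the mutants, the C403A response minus that of C406A was negative for all 10 genes, with a median of -0.51 beside -0.0017 over all genes. None passed there in limma's test, beside 0.112% of all genes. CTT1 had the smallest adjusted p of the 10 (-0.88 ± 0.18, adjusted p = 0.157). These 3 comparisons share arrays, as each strain's response enters 2 of them. Averaged over the 3 strains, the MMS response passed for 7 of 10 genes, all higher, beside 25.2% of all genes higher.

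Before any MMS, 2 of the 8 markers were higher in C403A and 1 in C406A than in wild type by the test. In untreated C403A 3 of 10 genes were higher than in untreated wild type and 0 lower, where 9.17% of all genes were higher and 4.97% lower. These were MSN4 (0.31 ± 0.09, adjusted p = 0.0408), CTT1 (0.64 ± 0.13, adjusted p = 0.0117) and TMA10 (0.71 ± 0.21, adjusted p = 0.0484). Without the 2 arrays of highest ribosomal RNA signal, which are 1 array of each of these groups, none of the 3 passed: MSN4 was at 0.41 (adjusted p = 0.110), CTT1 at 0.55 (adjusted p = 0.0961) and TMA10 at 0.53 (adjusted p = 0.198). Leaving out untreated wild-type array 1 left 0 of the 10 past the threshold, and leaving out untreated wild-type array 2 or untreated C403A array 2 left 1. None of the 3 passed on the values as deposited (adjusted p between 0.518 and 0.682) or with hybridization controls (between 0.644 and 0.874). With the floor at the 40th percentile the TMA10 difference was 0.03 (adjusted p = 0.896), and with median scaling 0.60 (adjusted p = 0.101). CTT1 lay under the 40th percentile floor on every array and was not tested with it. TMA10 also missed the threshold with no floor, no filter, no trend, all probe sets, array weights or the compared groups alone.

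In untreated C406A, HSP12 alone of the 10 genes was higher than in untreated wild type (0.81 ± 0.12, adjusted p = 0.0107), where 1.83% of all genes were higher. DDR2, TMA10 and TFS1 had estimates of 0.76, 0.76 and 0.43 that did not pass (adjusted p = 0.0929, 0.0927 and 0.0921). HSP12 missed the threshold without untreated wild-type array 1 (adjusted p = 0.0724) and without either untreated C406A array (adjusted p = 0.0913 and 0.0544), and on the values as deposited (0.529) and with hybridization controls (0.467). Both comparisons use the same 2 untreated wild-type arrays. Set against each other, untreated C403A was lower than untreated C406A in HSP12 only (-0.72 ± 0.12, adjusted p = 0.0447), where 0.317% of all genes were lower, and that call was lost on leaving out either C406A array or C403A array 2, and in several other settings (adjusted p = 0.0700 with no filter and 0.445 on the values as deposited).

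With MMS, C403A and C406A differed from each other by the test in HSP12 and TMA10, and HSP12 did so without MMS as well. The difference between the mutants' responses to MMS passed for neither gene (adjusted p = 0.338 and 0.291). Treated C403A was lower than treated wild type in 2 of 10 genes, MSN2 (-0.35 ± 0.09, adjusted p = 0.0343) and DDR48 (-0.33 ± 0.09, adjusted p = 0.0405), where 6.09% of all genes were lower. Neither passed on leaving out any 1 of the 4 arrays, nor on the values as deposited (adjusted p = 0.844 for MSN2 and 0.791 for DDR48). TMA10 was at -0.70 ± 0.21 and did not pass (adjusted p = 0.0521). With the term for scan position TMA10 (adjusted p = 0.0316) and SPI1 (-0.82, adjusted p = 0.000308) passed and DDR48 did not (adjusted p = 0.0516). Treated C406A was higher than treated wild type in HSP12 (0.87 ± 0.12, adjusted p = 0.00566), where 2.72% of all genes were higher, and that call was lost without MMS-treated C406A array 2 (0.76, adjusted p = 0.0549) and on the values as deposited (adjusted p = 0.0802).

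Treated C403A was lower than treated C406A in HSP12 (-1.26 ± 0.12, adjusted p = 0.00194) and in TMA10 (-1.04 ± 0.21, adjusted p = 0.0232), where 3.17% of all genes were lower. The HSP12 means were 758 in treated C403A and 1816 in treated C406A, a 2.39-fold difference. All 10 estimates were below 0 in that comparison. The TMA10 call did not hold without either C406A array or without C403A array 2 (adjusted p between 0.0647 and 0.127), nor on the values as deposited (adjusted p = 0.183).

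**Figure D4:**
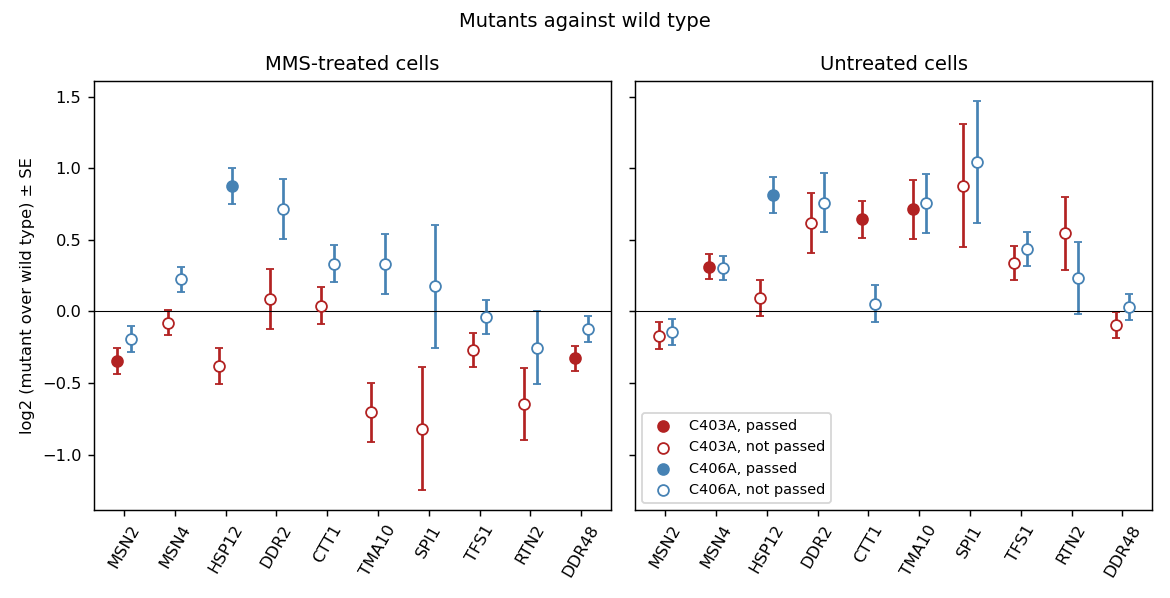
Log2 difference of C403A and C406A from wild type in MMS-treated cells (left) and untreated cells (right), with limma standard errors and 2 arrays a group. HSP12 lies above wild type in C406A under both conditions, at 0.87 with MMS and 0.81 without, and filled points passed at adjusted p under 0.05.

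The genes were compared with one another by their profile over the 12 arrays, as a description, since arrays of a group and of a treatment move together. TMA10 followed the mean of the other markers most closely (Pearson r = 0.992, 12 arrays), followed by DDR2 (0.951), TFS1 (0.932), HSP12 (0.881), DDR48 (0.851), CTT1 (0.842) and RTN2 (0.790). SPI1 stood apart with r = 0.290. The factor transcripts had r = 0.637 for MSN4 and 0.0768 for MSN2. The 5 genes outside the 10 whose profile was most like the mean of the markers, of 5022 compared, were MSC1, GCY1, TMT1, GSY2 and NQM1, with r between 0.980 and 0.981. GSY2 encodes a glycogen synthase, NQM1 a transaldolase, GCY1 a glycerol dehydrogenase and TMT1 a methyltransferase. MSC1 and GCY1 had MMS responses of 0.77 and 0.56 in C403A, 1.47 and 1.04 in C406A, and 1.73 and 1.57 in wild type.

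Other general stress genes, a list of 28 known or widely reported to belong to the same response, of which 27 were tested, rose with MMS or did not pass. With MMS 10 of 27 rose in C403A, 18 in C406A and 20 in wild type, and none fell. Of all genes tested, 8.42%, 12.7% and 19.1% rose in these strains, and 7.13%, 11.2% and 13.8% fell. Their median response was 0.36 in C403A, 0.72 in C406A and 0.87 in wild type. PRX1, a mitochondrial peroxiredoxin, had the largest change of the list in C403A (1.14 ± 0.07, adjusted p = 2.23e-05), followed by GAD1, glutamate decarboxylase (0.92 ± 0.13, adjusted p = 0.00174), and XBP1, a transcriptional repressor (0.87 ± 0.22, adjusted p = 0.0268), whose call was lost on leaving out 3 of the 4 arrays in turn (adjusted p up to 0.143).

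In C406A the largest changes of that list were those of XBP1, RTC3 (1.59 ± 0.25, adjusted p = 0.00207) and MSC1 (1.47 ± 0.15, adjusted p = 0.000253). XBP1 averaged 122 in treated C406A and was at the floor on both untreated C406A arrays, so it was at least 3.51-fold higher (adjusted p = 0.000552, with no spread among arrays at the floor). In wild type they were RTC3 (1.97 ± 0.25, adjusted p = 0.000391), GAD1 (1.89 ± 0.13, adjusted p = 1.49e-05) and CYC7, an isoform of cytochrome c (1.76 ± 0.17, adjusted p = 8.23e-05). CYC7 averaged 37.0 in untreated wild type, close to the floor of 34.5, so the size of its change rests on values near the floor. By the test of the difference, 2 of 27 had a smaller response in C403A than in wild type, where 0.987% of all genes passed either way. They were GAD1 (-0.97 ± 0.18, adjusted p = 0.0447) and YGP1, a secreted glycoprotein (-0.46 ± 0.07, adjusted p = 0.0218). Both calls depended on single arrays, as given with the flagged results. Neither difference passed on the values as deposited or with hybridization controls (adjusted p of at least 0.489). Between strains under MMS, 3 of 27 were higher and 6 lower in C403A than in wild type, where 7.47% of all genes were higher and 6.09% lower, with RTC3 at -1.06 ± 0.25 and SOL4, a phosphogluconolactonase, at -1.01 ± 0.20 (adjusted p = 0.0245 and 0.00987), where RTC3 missed the threshold on leaving out 3 of the 4 arrays in turn (adjusted p up to 0.153) and SOL4 on leaving out 1 (0.0574). Treated C403A was lower than treated C406A in 6 of 27, where 3.17% of all genes were lower, led by HXK1, a hexokinase (-0.94 ± 0.12, adjusted p = 0.00520), and by RTC3 (-1.05 ± 0.25, adjusted p = 0.0409), which missed the threshold on leaving out any 1 array (adjusted p between 0.0609 and 0.208). Without MMS, 7 of 27 were higher in C403A than in wild type, where 9.17% of all genes were, and 2 in C406A, where 1.83% were, GAD1 (0.75 ± 0.13, adjusted p = 0.0167, up to 0.155 on leaving out 1 array) and YGP1 (0.72 ± 0.05, adjusted p = 0.000173). On the values as deposited neither of the 2 passed (adjusted p = 0.636 and 0.0709), and in treated C403A against wild type neither RTC3 (0.0941) nor SOL4 (0.0661) did.

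Of the regulators of Msn2 and Msn4, a list of 24 genes of the Ras, protein kinase A, TOR and phosphatase pathways of which 23 were tested, 1 rose and 1 fell with MMS in C403A, where 8.42% of all genes rose and 7.13% fell. In C406A 1 rose and 3 fell, where 12.7% and 11.2% of all genes did, and in wild type 6 rose and 3 fell, where 19.1% and 13.8% did. RAS1, a GTPase that activates adenylate cyclase, fell in each strain, by 0.31 in C403A, 0.57 in C406A and 0.75 in wild type (adjusted p = 0.0206, 0.000676 and 9.10e-05), but none of the 3 calls held on the values as deposited (0.0019, -0.076 and -0.48, adjusted p = 1, 0.803 and 0.170) or with hybridization controls (adjusted p = 0.937, 0.738 and 0.142), and that of C403A missed the threshold on leaving out 3 of the 4 arrays in turn (adjusted p up to 0.1001). TPK2, a catalytic subunit of protein kinase A, rose in C406A (0.40 ± 0.07, adjusted p = 0.00316) and wild type (0.43 ± 0.07, adjusted p = 0.00154), a wild-type call lost with hybridization controls (adjusted p = 0.238). PDE2, a cAMP phosphodiesterase, and SCH9, a kinase downstream of TOR, fell in C406A (-0.27 and -0.34, adjusted p = 0.0330 and 0.0425) and wild type (-0.36 and -0.39, adjusted p = 0.00615 and 0.0195), though both C406A estimates were above 0 on the values as deposited and with hybridization controls. The wild-type calls did not hold there either, with PDE2 at -0.087 and SCH9 at -0.12 as deposited (adjusted p = 0.845 and 0.809) and at -0.25 and -0.28 with hybridization controls (adjusted p = 0.710 and 0.709). The C406A calls of both genes were lost on leaving out any 1 array (adjusted p between 0.0779 and 0.170), and that of SCH9 in wild type on leaving out 3 of the 4 in turn. In C403A, RAS2 rose by 0.20 (adjusted p = 0.0430), a call lost on leaving out any 1 of its 4 arrays (adjusted p between 0.0668 and 0.225).

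**Figure D5:**
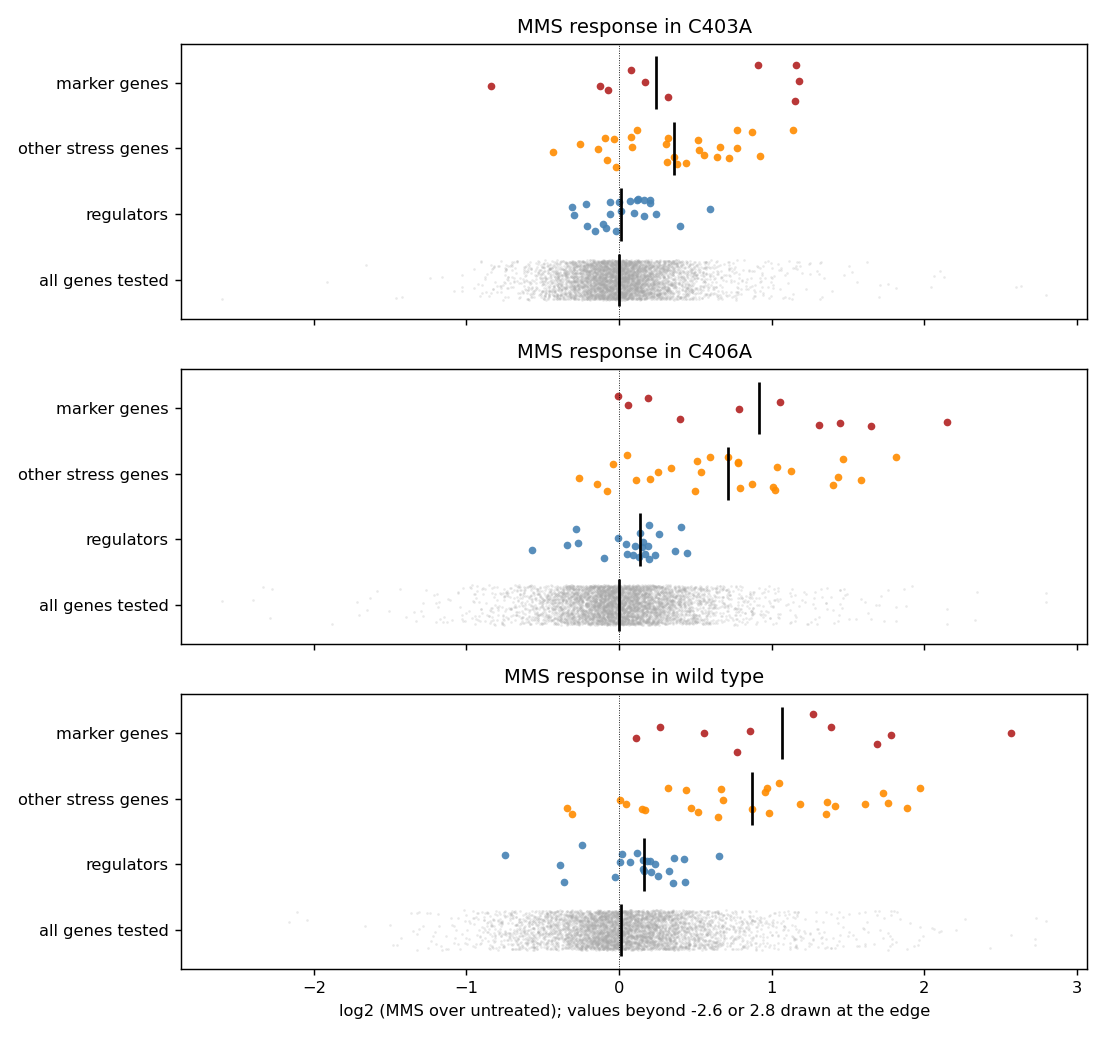
Log2 MMS response of the 10 genes, 27 other stress genes, 23 regulators and all 5368 genes tested, in C403A, C406A and wild type; points are genes, spread vertically for visibility, and black bars are medians. The median of the other stress genes is 0.36 in C403A, 0.72 in C406A and 0.87 in wild type. All genes centre near 0, which quantile normalization largely fixes in advance. On the values as deposited their medians are 0.27, 0.43 and 0.24.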

How the data were processed

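RNA of 3 yeast strains, untreated or treated with MMS, had been hybridized to 12 arrays, 2 in each of 6 groups. The deposited values are linear one-colour signal intensity per probe set, per the file headers, for 9335 probe sets an array, and 8.95% of them lie below 0. How the authors summarized probes into an intensity, and any scaling, are not given in the sources used here. Array medians ran from 184.0 to 310.2. Scan order and chip lot came from the deposited experiment files. The labels number no replicates, and arrays 1 and 2 are named in the order listed.

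Because medians differed by more than 1.5-fold (1.69), arrays were quantile normalized without the 60 control probe sets. Values under the 20th percentile (34.5) were raised to it before taking log2. In the name table, 6504 probe sets had 1 gene symbol, 328 several and 2503 none; the brightest of a gene was used. Genes above the floor on at least 2 arrays were tested (5368; 288 were left out). Group means of all 12 arrays were fitted with limma 3.58.1 in R 4.3.3 (lmFit, eBayes with trend, 6 residual and 3.53 prior degrees of freedom), with Benjamini-Hochberg adjustment over all genes in each of 13 contrasts. The fit alone was tested, on simulated log2 values with independent noise. That does not test the normalization, the floor or patterns shared among arrays.

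The members and lists were chosen with earlier results of these data known. All 10 members are named in the comparisons; from the lists, at most the 3 largest passing changes each way in an MMS response and 2 elsewhere; and the 5 genes most like the markers. SIP18 of the other stress genes and 1 listed regulator are not reported here, and HSP30 was named after its values were seen.

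Alternatives were median scaling, the values as deposited, a 2-fold minimum, array weights, a 40th percentile floor, no floor, no trend, no filter, fitting only the compared groups, all probe sets, averaging a gene's probe sets, and leaving each array out in turn. Added after seeing the data were scaling to 9 hybridization controls, a fit without the 2 arrays richest in ribosomal RNA signal, and a term for scan position. Plots used matplotlib 3.10.9 (Python 3.11.15).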

Additional observations from a re-analysis of the deposited data

Results flagged for a closer look

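For MSN4, both MMS arrays lay above both untreated arrays in wild type and in C406A and below them in C403A. The C403A response minus that of wild type was -0.39 (adjusted p = 0.165), and minus that of C406A it was -0.31 (adjusted p = 0.411), so neither difference passed. For SPI1, the MMS arrays lay above the untreated ones in wild type and below them in C403A, with a difference of -1.70 between the responses (adjusted p = 0.212). That difference passed with hybridization controls (-1.81, adjusted p = 0.000225) and with a term for scan position, chosen after seeing SPI1 (-1.70, adjusted p = 0.000248).

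GAD1 and YGP1, 2 of the 27 other stress genes, passed the test of the difference between the C403A and wild-type responses, at -0.97 (adjusted p = 0.0447) and -0.46 (adjusted p = 0.0218). Of all genes, 0.987% passed it. GAD1 missed the threshold on leaving out 7 of the 8 arrays in turn and YGP1 on leaving out 4 of them, and neither passed on the values as deposited or with hybridization controls.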

How the results depend on the processing

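No paired analysis was possible because the labels number no replicates; the term for scan position below was chosen after seeing SPI1 and is no pairing given by the labels. Precision is limited by 2 arrays a group. Counts below are of the 10 genes that passed. On leaving out 1 array, those that rose with MMS numbered 2 to 4 in C403A, 5 to 7 in C406A, 7 to 7 in wild type and 7 to 8 in the mean over strains, and 0 fell. Against untreated wild type, 0 to 4 were higher in untreated C403A and 0 to 1 in untreated C406A. Against treated wild type, 0 to 1 were lower in C403A, and 0 to 1 higher and 0 to 1 lower in C406A. Between the mutants, C403A had 0 to 1 higher and 0 to 1 lower untreated, and 1 to 2 lower with MMS. The C403A interaction had 0 to 1 lower, and the other interactions had 0.

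With a 2-fold minimum, 3 rose with MMS in C403A, 5 in wild type and 4 in the mean, and 0 passed in either mutant against wild type, untreated or treated, or in C403A against C406A untreated. With the compared groups alone, 2 rose in C403A, and 0 passed in every comparison between strains. On the values as deposited, 0 passed between either mutant and wild type, 0 between the untreated mutants and 1 between the treated ones. With hybridization controls, 1 fell with MMS in C403A (SPI1), 0 were higher in either untreated mutant, 0 were lower in untreated C403A than C406A, 4 were lower in treated C403A than C406A, and 1 was lower in the C403A interaction (SPI1). Without the 2 arrays of highest ribosomal RNA signal, untreated C403A had 0 higher, C406A had 2 higher both untreated and treated, and untreated C403A had 0 lower than C406A. With the term for scan position, 1 fell in C403A (SPI1), 5 were higher in untreated C403A, 3 in untreated C406A and 2 in treated C406A, 0 were lower in untreated C403A than C406A, 2 were lower in the C403A interaction (SPI1 and TMA10, adjusted p = 0.0332) and 1 between the mutants' responses.

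Untreated C403A had 1 higher with the 40th percentile floor, no trend or array weights. CTT1 lay under the 40th percentile floor on every array, so counts with that floor leave it out. Treated C403A had 0 lower than wild type with median scaling, 1 with no filter or no trend and 4 with array weights. Untreated C403A had 0 lower than C406A with no floor, no filter, no trend, all probe sets or array weights. The difference between the mutants' responses had 1 lower with the 40th percentile floor. The cause was not tested for any of these.

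These estimates changed sign. On the values as deposited the MMS response became 0.24 for MSN2, 0.20 for MSN4 and 0.0019 for RAS1 in C403A, and 0.45 for SPI1, 0.15 for SCH9 and 0.21 for PDE2 in C406A. With hybridization controls, SPI1, SCH9 and PDE2 in C406A became 0.40, 0.090 and 0.16, and YGP1 in treated C403A against wild type became -0.019. RTN2 in C403A ran from -0.076 to 0.23 on leaving out arrays, was 0 with the 40th percentile floor and -0.0026 without the 2 arrays of highest ribosomal RNA signal. Leaving out MMS-treated C403A array 1 gave RTN2 -0.076 and leaving out untreated C403A array 2 gave -0.0029. SPI1 in C406A ran from -0.37 to 0.36 on leaving out arrays, at 0.36 without MMS-treated array 1 and 0.31 without untreated array 2. CYR1 in treated C403A against wild type was 0.00080 with the mean of its probe sets.

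Scaling moved the median response of all genes to 0.27 in C403A, 0.43 in C406A and 0.24 in wild type as deposited, and to 0.37 in C406A with hybridization controls. Genes passing numbered 835 in C403A, 1286 in C406A and 1770 in wild type. Over the alternatives without a 2-fold minimum they numbered 91 to 899, 882 to 1560 and 400 to 1841, and with it 53, 104 and 188. Against wild type, the count was 759 for untreated C403A (5 to 834), 145 for untreated C406A (0 to 215), 728 for treated C403A (78 to 940) and 243 for treated C406A (0 to 305). For C403A against C406A it was 35 untreated (0 to 37) and 359 with MMS (3 to 470), and for the interactions 53 for C403A (1 to 88), 0 for C406A (0 to 19) and 6 between the mutants (0 to 23). Of genes passing against wild type, 64.8% were higher in untreated C403A, 67.6% in untreated C406A, 55.1% in treated C403A and 60.1% in treated C406A, and with hybridization controls 18.7%, 18.9%, 2.85% and 48.5%. For treated C403A against C406A these shares were 52.6% and 7.69%.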

Other observations

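Among the regulators, untreated C403A was higher than untreated wild type in PDE1, a cAMP phosphodiesterase (0.42 ± 0.10, adjusted p = 0.0232), and BMH2, a 14-3-3 protein (0.27 ± 0.05, adjusted p = 0.00650), and lower in RAS1 (-0.52 ± 0.07, adjusted p = 0.00243) and CYR1, adenylate cyclase (-0.32 ± 0.09, adjusted p = 0.0438), of 2 higher and 3 lower among 23 tested, where 9.17% of all genes were higher and 4.97% lower. PDE1 and CYR1 missed the threshold on leaving out 3 of the 4 arrays in turn (adjusted p up to 0.117 and 0.2004). BMH2 and RAS1 did not pass on the values as deposited (adjusted p = 0.509 and 0.487), with the compared groups fitted alone (0.122 and 0.0890) or with hybridization controls (0.891 and 0.144), and PDE1 and CYR1 did not pass in these 3 settings either. The mean of its probe sets put CYR1 at -0.097 (adjusted p = 0.659). With MMS, 4 of the 23 were lower in C403A than in wild type, where 6.09% of all genes were, led by PSR2, a phosphatase (-0.42 ± 0.12, adjusted p = 0.0424), and 1, WHI2, its partner in stress signalling, was lower in C403A than in C406A (-0.33 ± 0.07, adjusted p = 0.0255), where 3.17% of all genes were. PSR2 missed the threshold on leaving out 3 of the 4 arrays in turn (adjusted p up to 0.231) and WHI2 on leaving out any 1 (0.0762 to 0.122), and neither passed on the values as deposited (0.772 and 0.942) or with hybridization controls (0.0993 and 0.125).

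Besides HSP30 and SPI1, the genes with the next largest differences by scan position in the same direction in all 6 groups were EGO4 (at least 0.58 on the log2 scale in each group), FMP48 (at least 0.57) and CIP1 (at least 0.41). Across genes, the differences between the 2 arrays of one group and those of another had a median correlation of 0.0827 over the 15 pairs of groups, with a range of -0.0937 to 0.225, and genes are not independent replicates.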
